A study of Mus musculus with 52 samples.

Results

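The nectin family was examined in Cilia-APEX-IMCD3 cells, a mouse kidney inner medullary collecting duct line that carries a cilium-targeted labelling enzyme, after base editing of the dynein-2 intermediate chain genes Wdr34 and Wdr60. The 5 members, taken by symbol from the 24421 symbols in every count file, were Pvrl1 (now Nectin1), Pvrl2 (Nectin2), Pvrl3 (Nectin3), Pvrl4 (Nectin4) and Pvr, and all 5 were listed in all 52 libraries. Pvrl1 had been chosen because it was higher in mutant clones than in controls in these same libraries, so its mutant and control values are given as a description with no test. The ciliated cells were 2 clones homozygous for a Wdr34 missense change (Wdr34 clones 1 and 3), 1 clone homozygous for a Wdr60 missense change and, as controls, the 4 clones named D8, H12, A4 and G7. The non-ciliated cells were 1 Wdr34 clone, 1 Wdr60 clone and 4 control clones (AB, 1, 2 and 3). Every line grew from a single sorted cell, and each of these 13 sets of clone and state, called clones below, had 4 libraries. The labels do not say whether a clone recurs in both states under another name, and the study's methods speak of fewer clones than this, so the 13 may not all be distinct. The control clones had received the base editor BE4-Gam with a guide vector that held no target sequence. Per the study's methods, ciliation was induced by lowering the serum. The labels instead give 10% serum for every sample, ciliated ones included. Per the paper, 1 Wdr34 mutant was obtained only after the non-ciliated cells had been sequenced. The run of the other libraries is not given in the labels used here. Cilia, serum and any difference of run therefore cannot be told apart. The allele of each ciliated Wdr34 clone is not given in the labels. Per the paper, 1 of the 2 Wdr34 mutants also carried an unintended heterozygous Wdr34 missense change. That mutant was not part of the paper's non-ciliated analysis. The 4 libraries of a clone were technical replicates, so a p-value over libraries measures their spread and not that between independent clones. An exact permutation test over clone means stands beside it for mutants together and for the control states where a member or named gene has an edgeR p. Fits of single clones, the difference between states, the tests among control clones and the neighbours of Pvrl1 have none and rest on libraries alone.

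Nectins are immunoglobulin-like adhesion molecules of the cell surface. They pair across the gap between neighbouring cells, and the end of their cytoplasmic tail binds the PDZ domain of afadin, which ties them to actin and helps to place E-cadherin in adherens junctions of epithelia such as the renal tubule. Pvr, the mouse counterpart of the poliovirus receptor, is a relative that binds nectins on other cells and immune receptors such as Tigit, Cd226 and Cd96.

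The last 30 coding bases and the stop codon of each member are shown because they encode the tail end through which nectins bind afadin, the feature that sets Pvr apart from the 4 nectins. They are 5′ to 3′ on the coding strand, from GENCODE vM21 transcripts on GRCm38, with the last 4 codons in capitals.
Pvrl1 (Nectin1-201, chr9:43803984-43804016, plus strand): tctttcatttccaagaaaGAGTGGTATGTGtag
Pvrl2 (Nectin2-201, chr7:19717515-19717547, minus strand): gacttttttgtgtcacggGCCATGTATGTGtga
Pvrl3 (Nectin3-201, chr16:46448388-46448420, minus strand): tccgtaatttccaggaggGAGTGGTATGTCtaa
Pvrl4 (Nectin4-201, chr1:171386773-171386805, plus strand): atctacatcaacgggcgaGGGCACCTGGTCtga
Pvr (Pvr-201, chr7:19905127-19905159, minus strand): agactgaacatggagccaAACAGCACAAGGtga

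In these last 12 coding bases Pvrl1 shared 11 with Pvrl3, 8 with Pvrl2, 4 with Pvrl4 and 3 with Pvr. Over whole coding sequences the members were 58.6% to 65.9% identical in pairwise global alignments, and the longest identical run between any 2 of the 5 transcripts was 19 bases (Pvrl1 and Pvrl4), which is short beside a sequencing read. In the annotation, exons of Pvrl2 overlap 135 bases of the antisense gene Gm20512, and no other member's exon overlaps another gene. On GRCm38.p6 the gene spans are chromosome 9, 43737075 to 43807461, for Pvrl1, chromosome 7, 19716644 to 19749573, for Pvrl2, chromosome 16, 46387665 to 46498535, for Pvrl3, chromosome 1, 171370173 to 171388287, for Pvrl4, and chromosome 7, 19903578 to 19921143, for Pvr.

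Per kb of exon, the family in these cells was mostly Pvrl2 and Pvr. Library-size-scaled counts (CPM) were divided by the length of all annotated exons of a gene, which is 5.653 kb for Pvrl1, 3.494 kb for Pvrl2, 12.747 kb for Pvrl3, 3.746 kb for Pvrl4 and 6.122 kb for Pvr. In ciliated controls the level was 31.9 ± 15.98 CPM per kb for Pvrl2, 10.1 ± 9.14 for Pvr, 0.115 ± 0.0977 for Pvrl4 and 0.0377 ± 0.0361 for Pvrl1 (SD, n = 4 clones). Pvrl2 gave 78.2% of the family's summed level per kb there on average and 63.9% to 92.4% in single clones. Non-ciliated controls had the same order, with 27.9 ± 6.91 CPM per kb for Pvrl2, 5.25 ± 0.956 for Pvr, 0.161 ± 0.0807 for Pvrl4 and 0.0795 ± 0.0666 for Pvrl1 (n = 4). The ranges of Pvrl4 and Pvrl1 over control clones overlapped in both states. Both genes were measured in the same clones, and the difference between them within clones was not tested. Pvrl1 took a share of 0.0911% of the family in ciliated controls and 0.973% in ciliated mutants, and 0.221% and 2.30% in the non-ciliated cells. Even where it was highest, in the non-ciliated Wdr34 clone, Pvrl1 was 3.65% of the family's level per kb.

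**Figure D1:**
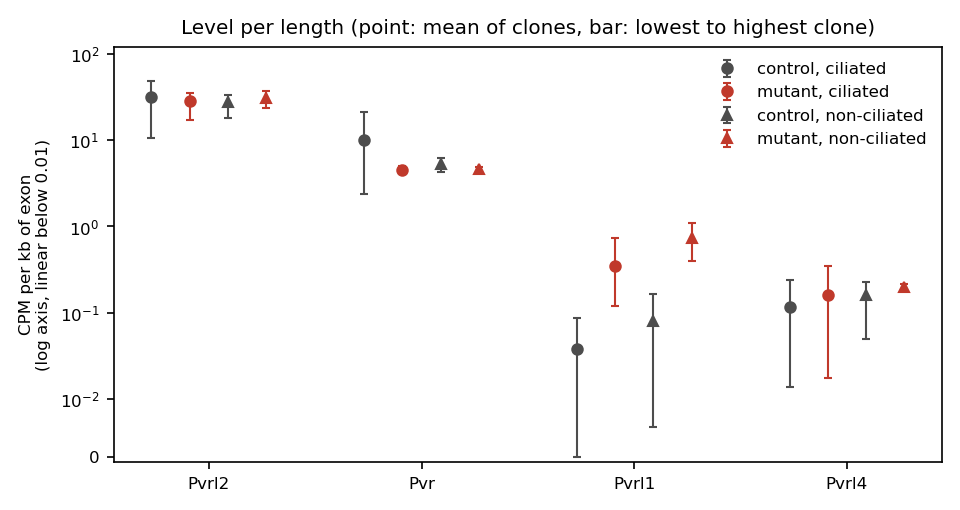
Level of 4 members in CPM per kb of exon (log axis, linear below 0.01), by state and genotype; points are means of clones and bars run from the lowest to the highest clone. Pvrl2 and Pvr lie well above Pvrl1 and Pvrl4 in all 4 groups, and only for Pvrl1 do the mutant bars lie wholly above the control bars of the same state.

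Pvrl1, nectin-1, a nectin found in many epithelia, was low in every clone and higher in each mutant clone than in any control clone of its state. In ciliated controls its 4 libraries held 0.0617, 0.0642, 0.210 and 0.545 CPM in D8, 0.218, 0.305, 0.632 and 0.794 in H12, and 0, 0.0577, 0.200 and 0.325 in A4. In G7 all 4 libraries were at 0 counts of 76779651 in total, which allows up to 0.0391 CPM at 3 counts over the clone. Counting error alone is covered by such limits.

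Among the ciliated mutants, Wdr34 clone 1 had 3.35, 3.83, 4.27 and 4.99 CPM (53 to 82 reads), the highest of the ciliated clones. The Wdr60 clone had 0.897, 0.976, 1.30 and 1.35 CPM (18 to 23 reads). Wdr34 clone 3 had 0.233, 0.444, 0.755 and 1.27 CPM (5 to 21 reads), and its libraries overlapped those of controls D8, H12 and A4. Its mean of 0.676 ± 0.452 lay above the 0.487 ± 0.271 of H12, the highest control (SD, n = 4 libraries). Wdr34 clone 1, with a mean of 4.11 CPM against 1.13 in the Wdr60 clone, stood apart from the other mutants, whose libraries overlapped each other. Relative to the mean of the 4 controls, Pvrl1 was 19.3-fold in Wdr34 clone 1, 5.30-fold in the Wdr60 clone and 3.17-fold in Wdr34 clone 3, and relative to H12, the highest control, it was 8.44-fold, 2.32-fold and 1.39-fold. Against G7 the ratios were at least 105, 28.95 and 17.3 in that order.

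In the non-ciliated cells the Wdr34 clone had 4.99, 5.74, 6.39 and 7.61 CPM of Pvrl1 (82 to 121 reads) and the Wdr60 clone 1.77, 2.24, 2.39 and 2.55 CPM (29 to 42 reads). Control AB had 0.412, 0.649, 1.30 and 1.35 CPM, control 1 had 0.439, 0.503, 0.554 and 0.560, and control 3 had 0.161, 0.238, 0.290 and 0.618. Control 2 held 2 reads in its 4 libraries together. Here no mutant library overlapped a control library. The Wdr34 clone was 13.8-fold and the Wdr60 clone 4.98-fold the mean of the 4 controls, and 6.66-fold and 2.41-fold control AB, the highest of them.

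**Figure D2:**
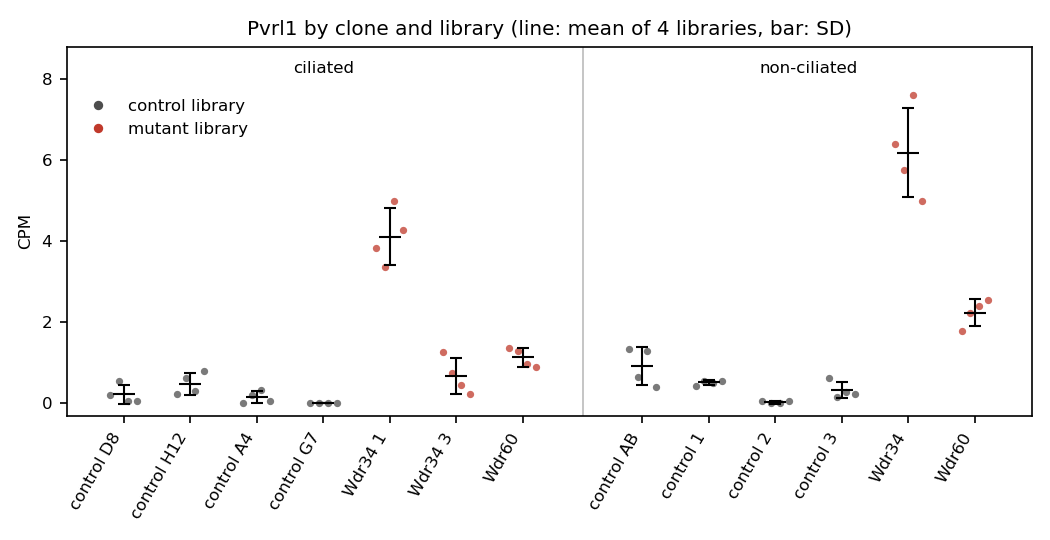
Pvrl1 in CPM in each of the 52 libraries (points), with the mean and SD of the 4 libraries of a clone (black), for ciliated cells on the left and non-ciliated cells on the right; CPM were scaled within each state. The Wdr34 clones at 4.11 and 6.18 CPM stand highest in their states, and the ciliated Wdr34 clone 3 reaches into the ranges of controls D8, H12 and A4.

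The fitted log2 fold change of Pvrl1 was 3.16 in ciliated and 3.22 in non-ciliated mutants, given as a description since the gene was picked on these contrasts. For single clones it was 4.22, 1.61 and 2.36 in ciliated Wdr34 clone 1, Wdr34 clone 3 and the Wdr60 clone, and 3.77 and 2.31 in the non-ciliated Wdr34 and Wdr60 clones. In single clones the value moved with the libraries kept. It was 0.91 without replicate 1, 1.19 without G7 and 1.91 without replicate 4 in Wdr34 clone 3, which had no value without replicate 2 or H12. It was 3.801 to 5.03 in ciliated Wdr34 clone 1 and 1.95 to 3.16 in the ciliated Wdr60 clone (lowest without G7, highest without H12), and 3.39 to 4.41 and 1.92 to 2.95 in the non-ciliated Wdr34 and Wdr60 clones (lowest without control 2, highest without AB). For mutants together the ciliated value was 2.04 without Wdr34 clone 1, 3.57 without Wdr34 clone 3 and 2.74 without G7, whose libraries are all at 0. The non-ciliated value was 2.82 without control 2, 3.85 without AB and 2.31 without the Wdr34 clone. Of all genes tested, 0.962% had every ciliated mutant clone mean above every control and 6.42% every non-ciliated one. The states share no library, but they may share clones, and the choice of Pvrl1 used both.

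Pvrl2, nectin-2, the most abundant nectin here, did not pass the test in either state. Its clone means in ciliated controls were 132 ± 2.36 CPM in D8, 108 ± 6.94 in H12, 169 ± 17.98 in A4 and 36.7 ± 5.68 in G7, and in ciliated mutants 115 ± 2.96 in Wdr34 clone 1, 60.6 ± 6.49 in Wdr34 clone 3 and 124 ± 28.1 in the Wdr60 clone (SD, n = 4 libraries). The groups overlapped, and G7 and Wdr34 clone 3 stood lowest on either side. The log2 fold change was -0.16 (SE 0.25; edgeR quasi-likelihood test, BH-adjusted p = 0.782; exact 2-sided permutation p over 3 and 4 clones, 0.971). In the non-ciliated cells the controls had 109 ± 16.01 (AB), 102 ± 0.202 (1), 62.3 ± 1.32 (2) and 116 ± 6.73 (3), the Wdr34 clone 83.1 ± 2.35 and the Wdr60 clone 129 ± 11.2, and the fitted change was 0.13 on the log2 scale (SE 0.15; edgeR adjusted p = 0.582; exact permutation p = 0.8). Its sign turned when single clones were left out, without any of those values passing the test.

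Pvr had 2 levels among the ciliated control clones. D8 had 116, 126, 129 and 145 CPM and A4 had 30.2, 83.9, 106 and 124 CPM, whereas H12 stayed within 14.1 and 15.4 CPM and G7 within 15.9 and 17.96. The clone means of the 3 ciliated mutants lay between those of these pairs of controls, at 27.6 ± 3.35 CPM in Wdr34 clone 1, 30.9 ± 1.68 in Wdr34 clone 3 and 25.3 ± 3.19 in the Wdr60 clone (SD, n = 4 libraries). Libraries of Wdr34 clones 1 and 3 reached 32.3 and 33.0 CPM, above the lowest A4 library. The fitted log2 fold change of -1.14 (SE 0.41; edgeR, unadjusted p = 0.00873, adjusted p = 0.115) missed the threshold, and the exact permutation p over clone means was 0.543. The value was -0.48 without D8 (edgeR adjusted p = 0.610) and -0.95 without A4 (adjusted p = 0.248). Pvr passed the test without H12 (-1.47, edgeR adjusted p = 0.00894) or without G7 (-1.46, adjusted p = 0.00963). In all, 215 of 11802 and 343 of 11876 genes were called then, against 77 of 11950 in the main fit. A4 replicate 1, the lowest A4 library for Pvr, was also least like the other A4 libraries (mean r = 0.980 against 0.987 to 0.991), and without it and G7 replicate 4 the log2 fold change was -1.26 (edgeR adjusted p = 0.0728). Non-ciliated clones were closer together, with controls from 26.0 to 38.2 CPM and mutants at 29.8 and 26.6 CPM, a fitted log2 change of -0.18 (SE 0.10; edgeR adjusted p = 0.252) and an exact permutation p of 0.467. AB replicate 1 (mean r = 0.962 with the other libraries of its clone) and Wdr60 replicate 1 (0.975) stood apart in the non-ciliated cells, and without both Pvr was at -0.26 (edgeR adjusted p = 0.0535) and Pvrl1 at 3.53.

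Pvrl4, nectin-4, was near the limit of detection. Ciliated clones held 0 to 34 reads per library and had clone means of 0.898 ± 0.263 (D8), 0.254 ± 0.0645 (H12), 0.526 ± 0.402 (A4) and 0.0517 ± 0.0686 CPM (G7) in controls and of 1.30 ± 0.571 (Wdr34 clone 1), 0.0661 ± 0.0488 (Wdr34 clone 3) and 0.460 ± 0.1002 CPM (Wdr60 clone) in mutants. Mutants and controls overlapped (exact permutation p = 0.743 over 3 and 4 clones), and the gene did not enter the ciliated fit because too few libraries had enough reads. Wdr34 clone 1 held the highest and Wdr34 clone 3 the lowest level of the mutants, with log2 fold changes against the controls of 1.59 (SE 0.66, edgeR adjusted p = 0.227) and -2.55 (SE 1.01, adjusted p = 0.0778). Wdr34 clone 3 had 0 to 2 reads per library, so the gene entered that fit only through control libraries. Non-ciliated clones ran from 0.186 ± 0.114 CPM in control 2 to 0.852 ± 0.312 in control 3, with the Wdr34 clone at 0.804 ± 0.162 and the Wdr60 clone at 0.669 ± 0.334 and a fitted log2 change of 0.29 (SE 0.35; edgeR adjusted p = 0.607; exact permutation p = 0.667). Pvrl3, nectin-3, had 0 counts in 51 of 52 libraries and 2 reads in control 3 replicate 4 of the non-ciliated cells. A count of 0 in a library allows up to 0.107 to 0.202 CPM of Pvrl3 at 3 counts, so a lower level could be missed in a single library. Over the 4 libraries of a clone at 0 the limit was 0.0391 (G7) to 0.0463 CPM (D8).

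**Figure D3:**
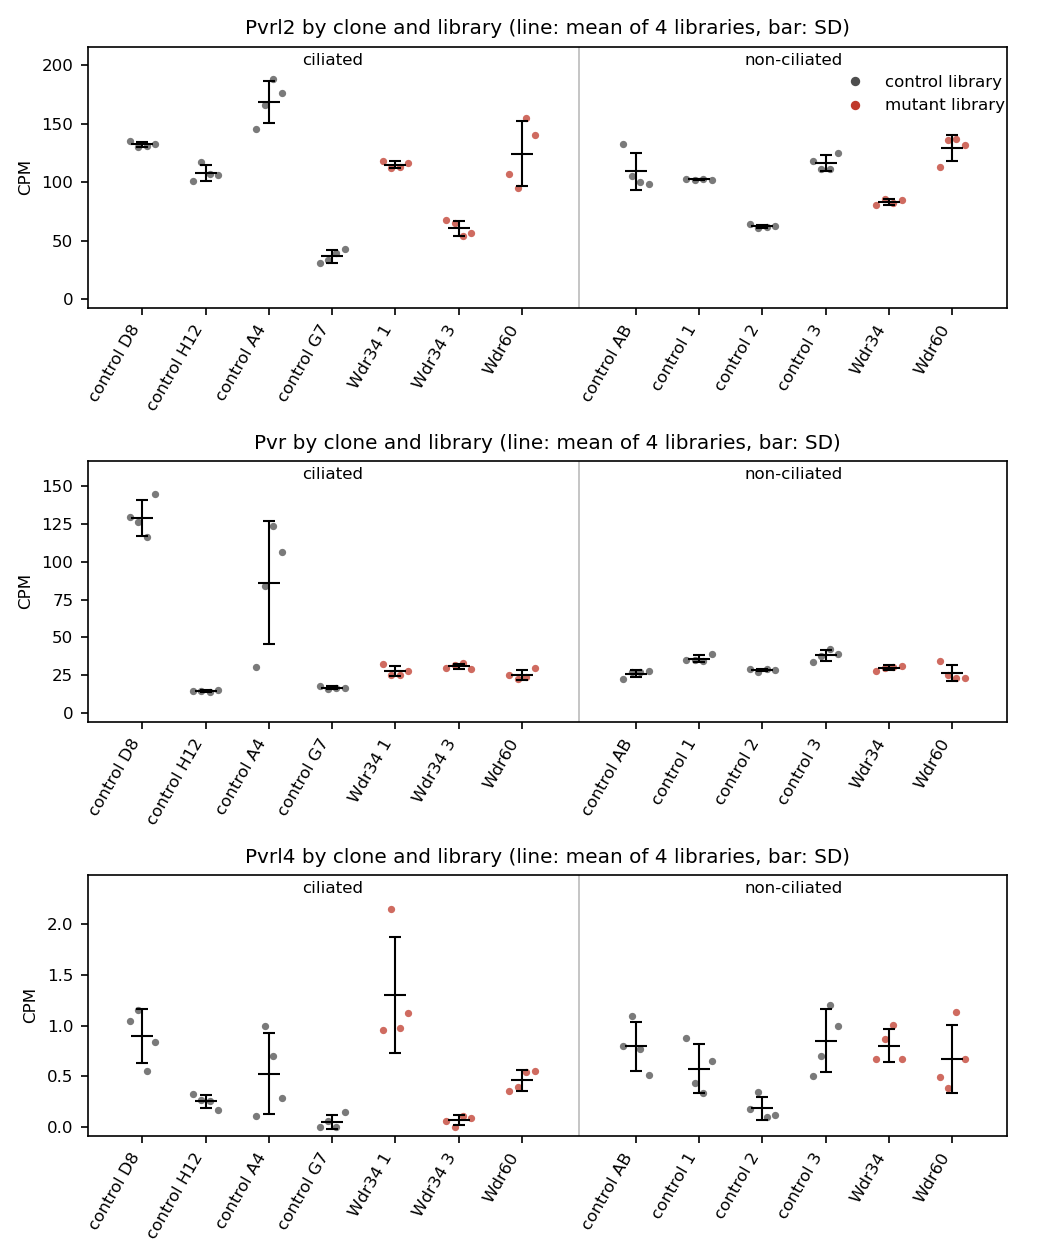
Pvrl2, Pvr and Pvrl4 in CPM in each of the 52 libraries (points), with the mean and SD of the 4 libraries of a clone (black), in the same clone order in each panel. Pvrl2 and Pvrl4 are lowest in G7 and Wdr34 clone 3 among ciliated clones and in control 2 among non-ciliated clones, and Pvr is high only in D8 and A4.

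Apart from Pvrl1, 2 members entered the ciliated fit and 3 the non-ciliated fit, and 0 of them were called in either direction, a call being an adjusted p below 0.05 with a change of 1 or more on the log2 scale. Unadjusted p-values under 0.05 were found for 1 of the 2 (Pvr) and 0 of the 3, and DESeq2 called 0 as well. Of all genes in these fits, 0.418% were called higher and 0.226% lower in ciliated mutants and 0.491% higher and 2.57% lower in non-ciliated mutants, so a count of 0 among 2 or 3 members lies near this background. Against single mutant clones 3 members were tested each time and 0 were called by edgeR. Called higher and lower there were 0.218% and 0.460% of all genes for ciliated Wdr34 clone 1, 3.64% and 2.16% for Wdr34 clone 3 and 0.642% and 1.29% for the ciliated Wdr60 clone. The non-ciliated shares were 0.275% and 1.97% for the Wdr34 clone and 0.986% and 2.43% for the Wdr60 clone. In these single-clone fits 0 to 2 of the 3 members had an unadjusted p under 0.05. The share of all genes under that limit was not computed, here or for mutants together, so no conclusion is drawn from these counts. For Wdr34 clone 3, DESeq2 called Pvrl4 (log2 fold change -2.69, adjusted p = 0.0413), where 850 of 12553 genes were called. Without G7 edgeR called Pvrl2 (-1.17, adjusted p = 1.24e-05) and Pvrl4 (-2.90, adjusted p = 0.00482), where 1632 of 12500 genes were called. The main edgeR fit of this clone called 728. Pvrl4 had 0 to 2 reads per library in this clone, so it passed the filter only through control libraries. No conclusion is drawn from its calls.

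The mutant effect was also compared between the states by an interaction term over all 52 libraries, for members other than Pvrl1. The difference, ciliated minus non-ciliated, was -0.29 for Pvrl2 (SE 0.32, edgeR adjusted p = 0.734), 0.21 for Pvrl4 (SE 0.71, adjusted p = 0.927) and -0.97 for Pvr (SE 0.46, unadjusted p = 0.0403, adjusted p = 0.319), and 0 of the 3 were called, beside 1.12% of all genes called higher and 0.0638% lower. DESeq2 was not run on this term. The Pvr difference was called without control H12 (-1.29, edgeR adjusted p = 0.0442) or without G7 (-1.27, adjusted p = 0.0282). The share of all genes called for this term in these settings was not computed, so no conclusion is drawn from these calls. In ciliated mutants against controls, leaving out H12 or G7 raised the calls over all genes from 77 to 215 or 343.

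**Figure D4:**
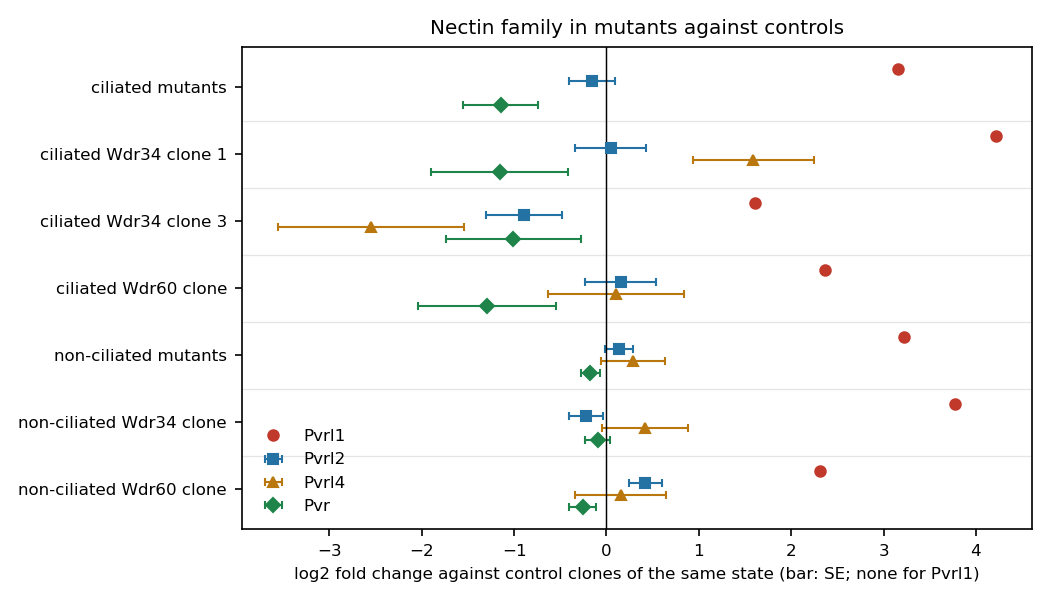
Fitted log2 fold change of 4 members against the control clones of the same state, for mutants together and for each mutant clone; bars are SE, and Pvrl1 has none because it was chosen on these contrasts. Pvrl1 lies between 1.61 and 4.22 in all 7 comparisons, and the other members scatter around or below 0 except Pvrl4 at 1.59 in ciliated Wdr34 clone 1.

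Between states, control clones were compared without any mutant library. Pvr had a log2 difference of 0.87, ciliated against non-ciliated (SE 0.35, edgeR adjusted p = 0.0316), below the fold limit, and an exact permutation p of 0.714 over 4 and 4 clones. Without D8 it was 0.21 (edgeR adjusted p = 0.601), and without H12 or G7 it was 1.21 or 1.19 and was called. In all, 1182 of 11912 and 1335 of 11968 genes were called without H12 and without G7. Pvrl2 had 0.12 (SE 0.21, adjusted p = 0.660, exact p = 0.971). Neither of the 2 tested members was called, beside 6.29% of all genes higher and 3.99% lower. At any fold, 60.9% of all genes had an edgeR adjusted p under 0.05. Pvrl1 and Pvrl4 did not enter this fit. Their exact permutation p-values over clones were 0.314, with a log2(CPM + 0.5) difference of -0.39, and 0.429, with -0.32, where 0.0286 is the smallest p that 4 against 4 clones can give. The pseudocount shrinks such low values: with all genes of at least 1 count kept, the fitted log2 differences were -1.12 for Pvrl1 (edgeR adjusted p = 0.121) and -0.56 for Pvrl4 (adjusted p = 0.304). These tests treat the control clones of the states as distinct, which the labels do not show.

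The control clones of a state differed from each other beyond the spread of their libraries for every member that passed the main filter. In the ciliated cells these were 3 members, Pvrl2 (edgeR F test over the 4 clones, adjusted p = 6.7e-12), Pvr (3.87e-09) and Pvrl4 (0.000525), but 85.4% of all genes tested passed the same rule. In the non-ciliated cells these were 4, Pvrl2 (5.71e-08), Pvr (1.34e-05), Pvrl1 (7.49e-05) and Pvrl4 (0.00143), beside 80.5% of all genes. The ratio of the highest to the lowest ciliated control, on log2(CPM + 0.5), was 8.51 for Pvr, 4.58 for Pvrl2 and 2.51 for Pvrl4, against a median of 1.61 over all genes. In non-ciliated controls it was 2.59 for Pvrl1, 1.95 for Pvrl4, 1.86 for Pvrl2 and 1.46 for Pvr, against a median of 1.49. The pseudocount compresses low members. In CPM itself the order differed in the ciliated controls, where the highest was 17.4-fold the lowest for Pvrl4, 8.79-fold for Pvr and 4.61-fold for Pvrl2, and the non-ciliated ratio was 31.4 for Pvrl1, whose lowest clone held 2 reads, and 4.59 for Pvrl4, in the same order as above. Without control 2 only 2 of the 4 remained past the threshold, Pvrl1 (adjusted p = 0.0271) and Pvr, while Pvrl2 had 0.110 and Pvrl4 0.308. The share of all genes that differed without control 2 was not computed, so this drop cannot be read as particular to the members. With all genes of at least 1 count kept, Pvrl1 also differed among ciliated controls (edgeR adjusted p = 0.00324). Pvrl3 did not differ among non-ciliated controls at that filter (adjusted p = 0.406).

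The clones lowest in nectins were also lowest in some epithelial genes and highest in others. Cdh1, E-cadherin, was at 15.05 ± 3.01 CPM in G7 against 624 to 663 in the other ciliated controls, and at 4.16 ± 0.561 in control 2 against 246 to 379 in the other non-ciliated controls. Wdr34 clone 3 had 308 ± 5.05 CPM of Cdh1, the lowest of the ciliated mutants, beside 417 in the Wdr60 clone and 616 in Wdr34 clone 1. Zeb1, a repressor of Cdh1, was 73.6, 80.6 and 69.0 CPM in G7, control 2 and Wdr34 clone 3, while the other ciliated clones had 0.210 to 8.17 CPM and the other non-ciliated clones 1.81 to 37.8. Krt8, an epithelial keratin, was 27.5, 40.5 and 78.4 CPM in these 3 clones and 387 to 962 CPM in all others. Cdh16, the kidney-specific cadherin, went the other way and was highest of its group in each, at 878 CPM in G7, 262 in control 2 and 602 in Wdr34 clone 3. Pax8, a kidney transcription factor, was highest of its group in G7 (438 CPM) and control 2 (296) and lowest in Wdr34 clone 3 (245). Lrp2, megalin of the proximal tubule, was highest of its group in all 3, at 466, 268 and 63.8 CPM. The 12 markers of collecting duct and kidney epithelium summed to 1873 CPM in G7 and at most 4848 in ciliated controls, to 1077 in control 2 and at most 3362 in non-ciliated controls, and to 1968 in Wdr34 clone 3 and at most 3874 in ciliated mutants. The 6 fibroblast and mesenchyme markers summed to 229, 735 and 272 CPM in the same 3 clones, the highest of their groups. Vim and Zeb1 made up most of these sums, with 155, 649 and 201 CPM of Vim, while Col1a1, Col1a2, Pdgfra and Thy1 reached at most 5.27, 0.0458, 1.105 and 0 CPM in any clone. Aqp2, the water channel of the collecting duct, was at 0 in 51 of 52 libraries, and Thy1 was at 0 in all 52. Pvrl1, Pvrl2 and Pvrl4 were each lowest of their group in these 3 clones, and Pvr in none of them. The part of these markers in the nectin values was not tested.

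**Figure D5:**
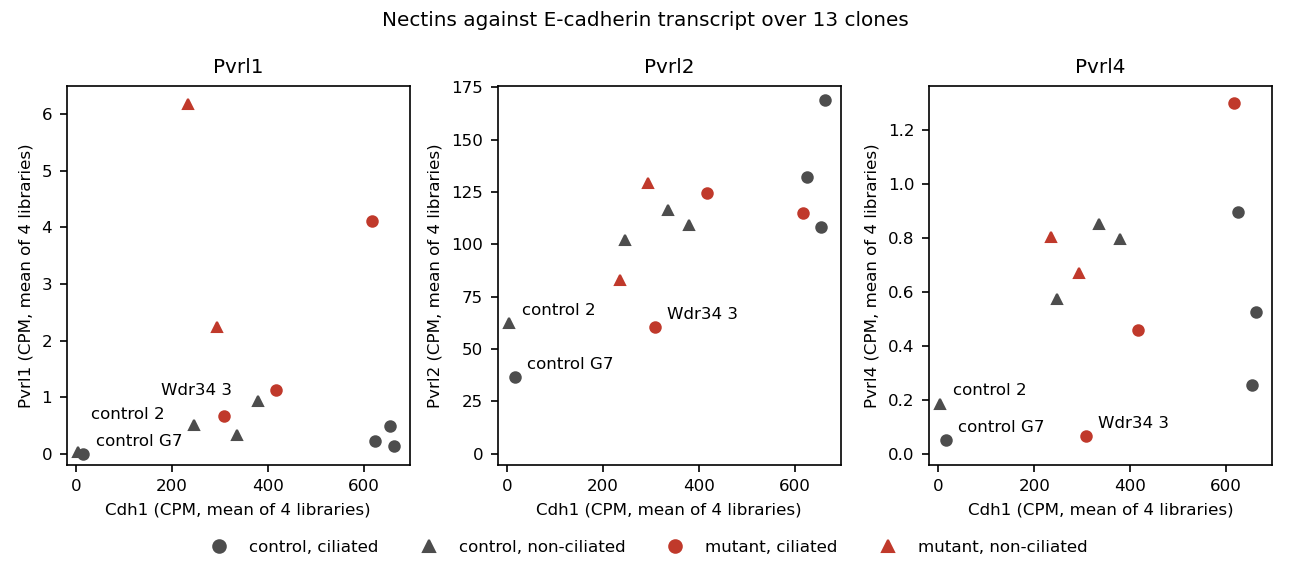
Clone means of Pvrl1, Pvrl2 and Pvrl4 against Cdh1, all in CPM, for 13 clones; circles are ciliated and triangles non-ciliated clones. G7 and control 2, at 15.05 and 4.16 CPM of Cdh1, have the lowest Pvrl1 and Pvrl2 of the controls of their state. Pvrl1 has the order of Cdh1 in the 3 ciliated mutants (0.676, 1.13 and 4.11 CPM) and the opposite order in the 2 non-ciliated ones.

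Of 48 genes listed as the nectin system, 47 were in the files and 39 were tested. In ciliated mutants 0 were called higher and 1 lower, where 0.418% and 0.226% of all genes were, and the median log2 fold change was -0.02 in the list and -0.01 over all genes. In non-ciliated mutants 0 were called in either direction, beside 0.491% and 2.57% of all genes, with medians of 0.06 and 0.00. An adjusted p under 0.05 at any fold was found for 2 and 7 of the 39, beside 3.17% and 15.01% of all genes. The 1 called gene was Tigit, an immune receptor for Pvr (-2.28, SE 0.55, edgeR adjusted p = 0.0201). Its clone means were 0.648, 0.229 and 1.36 CPM in Wdr34 clone 1, Wdr34 clone 3 and the Wdr60 clone and 7.76, 1.08, 5.18 and 0.612 CPM in D8, H12, A4 and G7. These groups overlapped, and the exact permutation p over 3 and 4 clones was 0.257, and with libraries summed by clone 0 genes were called in all. Mllt4, which encodes afadin, had -0.10 (SE 0.05, edgeR adjusted p = 0.257, exact permutation p = 0.2) in ciliated and 0.09 (SE 0.10, adjusted p = 0.555, exact p = 0.733) in non-ciliated mutants, and 371 to 533 CPM in every clone. Cdh1 had -0.13 (SE 0.48, edgeR adjusted p = 0.918, exact permutation p = 1) and 0.13 (SE 0.63, adjusted p = 0.913, exact p = 0.933). In ciliated Wdr34 clone 3, 2 list genes were called lower, Tigit (-3.99, edgeR adjusted p = 0.0105) and Vav2 (-1.04, adjusted p = 0.0135), where 2.16% of all genes were. Tigit was at 0.229 CPM in this clone, so it passed the filter through control libraries. No conclusion is drawn from its call there. Between control states 0 were called higher and 3 lower in ciliated cells, beside 6.29% and 3.99% of all genes. These were Tigit (-2.99, exact permutation p = 0.143), Sorbs2, an actin-linked adaptor (-1.44, exact p = 0.229), and Actn1, an actin crosslinker (-1.11, exact p = 0.0286, the smallest possible).

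By Pearson correlation of clone-mean log2(CPM + 0.5) over the 13 clones, after subtracting the mean of each state, the genes most like Pvrl1 among 11708 compared were Ufc1 (r = 0.864), Mrpl44 (0.861), Rfwd2 (0.853), Gpatch4 (0.831) and Bcas2 (0.826). Their own log2 fold changes were 0.16 to 0.35 in ciliated and 0.33 to 0.60 in non-ciliated mutants, far below that of Pvrl1. Within the family r was 0.23 for Pvrl2 and -0.19 for Pvr. The points may share clones, and r is a description. The 10 nearest tested genes were taken on chromosome 9, 5 on each side of Pvrl1. Their median log2 fold change was -0.07 in ciliated and -0.09 in non-ciliated mutants, and 0 of them were called in either. Of all genes, 0.418% and 0.226% were called higher and lower in ciliated and 0.491% and 2.57% in non-ciliated mutants. At any fold, Tmem136 (0.61) and Hinfp (-0.28) had an edgeR adjusted p under 0.05 in ciliated mutants and Mcam (0.42) in non-ciliated ones. Of all genes 3.17% and 15.01% did. Some neighbours also did so in single clones, such as Tmem136 (0.89) in the ciliated Wdr60 clone. In the non-ciliated Wdr34 clone Usp2 was called lower (-1.26, edgeR adjusted p = 0.0406), where 1.97% of all genes were.

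The promoters of Pvrl2, the highest member, and Pvrl3, which had almost no reads, are shown because these members lie at opposite ends of the range; those of Pvrl1 and Pvr are not shown. They run from 250 bases before to 50 after an annotated start (RefSeq, GRCm38.p6), which for Pvrl2 is the outer end of the gene span and for Pvrl3 lies inside the span, 5′ to 3′ on the gene's strand, with the motif GGGCGG, the GC box, in capitals; both strands were searched.
Pvrl2 (chr7:19749524-19749823, minus strand): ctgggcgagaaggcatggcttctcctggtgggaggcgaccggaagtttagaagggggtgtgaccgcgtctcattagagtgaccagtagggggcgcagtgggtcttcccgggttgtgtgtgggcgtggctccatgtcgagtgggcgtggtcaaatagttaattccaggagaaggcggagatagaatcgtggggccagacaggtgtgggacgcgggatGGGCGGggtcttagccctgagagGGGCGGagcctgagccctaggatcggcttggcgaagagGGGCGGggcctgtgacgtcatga
Pvrl3 (chr16:46496918-46497217, minus strand): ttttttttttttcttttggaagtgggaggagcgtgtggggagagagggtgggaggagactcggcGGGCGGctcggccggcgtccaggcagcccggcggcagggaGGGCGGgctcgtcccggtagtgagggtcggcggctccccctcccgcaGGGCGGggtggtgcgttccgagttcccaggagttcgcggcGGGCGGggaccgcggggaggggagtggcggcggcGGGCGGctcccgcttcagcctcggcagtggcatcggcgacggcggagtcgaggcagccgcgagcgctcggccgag

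The motif occurred 3 times for Pvrl2, 5 times for Pvrl3 and 0 times for Pvrl4, and 35.7% of 32851 promoters of this length held it. CACGTG (7.15% of promoters) and TATAAA (13.6%) were in none of the 3 windows. The windows held 20, 40 and 3 CpG for Pvrl2, Pvrl3 and Pvrl4, with a median of 7 over all promoters, so the member with almost no reads had the most CpG. A match of letters is a description and not a binding site.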

How the data were processed

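RNA was sequenced from 52 libraries, 4 for each of 13 sets of clone and state. According to the study's methods and the submitters' processing notes, the authors aligned paired reads to GRCm38/mm10 with Rsubread in R 3.4.4, counted them per gene symbol with featureCounts and tested with DESeq2 1.18.1. The authors deposited these counts as they were, not normalized. The strand setting and the treatment of multimapping reads are not given in the sources used here. Library totals ran from 14816218 to 28084979 counts.

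Fits were run in edgeR 4.0.16 under R 4.3.3 (TMM, filterByExpr by genotype, quasi-likelihood test), with limma 3.58.1 and DESeq2 1.42.0 as alternatives and libraries as samples. Adjusted p-values are Benjamini-Hochberg over all genes tested. Exact permutation tests used clone means of log2(CPM + 0.5); their smallest possible p is 0.0286 for 3 against 4 clones and 0.0667 for 2 against 4. CPM were scaled within a state, so levels of the states are only roughly comparable. Symbols were matched to RefSeq (24276 of 24421); Pvr was matched by its own symbol, since it is also an old name of Nectin2. The members with a value in a comparison are named there; of the nectin system, Mllt4, Cdh1 and the genes called are named. The edgeR step was tested on simulated data. Alternatives were DESeq2, RLE scaling, 2 filters, summed libraries, a clone block, a replicate block, and leaving out clones or replicate numbers. Members and gene lists were chosen with earlier results of these data known.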

Additional observations from a re-analysis of the deposited data

Results flagged for a closer look

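Each group of 4 values was examined for 1 value far from the other 3, and chance alone marks about 1 in 20 such groups. Of 52 groups of libraries 5 were marked, and of 9 groups of control clones 1. Pvrl3 was at 0.0952 CPM (2 reads) in replicate 4 of non-ciliated control 3 and at 0 in its other libraries, so that the clone mean of 0.0238 CPM stood apart from 0 in the other 3 controls. Pvrl4 was at 2.15 CPM (34 reads) in replicate 2 of ciliated Wdr34 clone 1, against 0.959 to 1.12 in the others. Pvr was at 34.7 CPM in replicate 1 of the non-ciliated Wdr60 clone against 23.3 to 25.1, at 22.6 in replicate 1 of control AB against 26.8 to 27.5, and at 39.1 in replicate 4 of control 1 against 34.3 to 35.1. The Wdr60 and AB libraries named here also stood apart over all genes (mean r = 0.975 and 0.962 with the other libraries of their clone).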

How the results depend on the processing

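Of the values recomputed without leaving out clones or replicates, 307 were counted as the same and 7 as moved. A further 2 reversed and 1 passed the test newly. On leaving out clones or replicate numbers, 315 were counted as the same, 18 moved, 16 reversed and 6 passed newly. A value counted as the same need not have kept a call, since Pvrl1 has no test in the mutant contrasts. Among ciliated control clones, 2 members in place of 3 also counted as the same. Pvrl2 turned to -0.044 between control states when voomLmFit took clones as blocks, and Pvrl4 in the ciliated Wdr60 clone to -0.044 without A4 replicate 1 and G7 replicate 4, a setting chosen after seeing the data. With no fold limit 1 of the 2 tested members (Pvr) was called between control states, where 60.9% of all genes passed. For ciliated Wdr34 clone 3 DESeq2 called 1 (Pvrl4, at 0 to 2 reads per library there), beside 850 of 12553 genes. Among non-ciliated control clones with at least 10 counts in every library, 2 of the 2 still tested (Pvrl2 and Pvr) differed. Pvrl1 and Pvrl4 do not pass that filter, and 80.5% of all genes differed in the main fit. The cause of the other changes was not tested.

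Leaving out 1 clone or replicate number at a time gave, for ciliated mutants, 0 to 1 members called, 2.04 to 3.57 for Pvrl1, -0.45 to 0.11 for Pvrl2 and -1.47 to -0.48 for Pvr. Pvrl1 gave no value without replicate 2, without H12 or with at least 10 counts per library. Non-ciliated mutants gave 2.31 to 3.85 for Pvrl1, -0.22 to 0.42 for Pvrl2 and -0.017 to 0.50 for Pvrl4. Control states gave 0 to 1 called, -0.16 to 0.41 for Pvrl2 and 0.21 to 1.21 for Pvr. Single clones gave 0 to 2 called for ciliated Wdr34 clone 3 (2 without G7, where 1632 of 12500 genes were called). They gave -0.23 to 0.39 for Pvrl4 in the non-ciliated Wdr60 clone and -0.25 to 0.32 for Pvrl2 in ciliated Wdr34 clone 1. In the ciliated Wdr60 clone the values were -0.13 to 0.43 for Pvrl2 and -0.26 to 0.39 for Pvrl4. Control clones gave 2 to 4 members among the non-ciliated ones, and the difference between states 0 to 1.

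Same-numbered libraries correlated at 0.0904 to 0.564 in ciliated cells, above every other number for replicates 1 and 4 and below the best other number for 2 and 3, and at -0.476 to 0.107 in non-ciliated cells, below it for all 4. Not every value passed 0.1 and the labels name nothing that the numbers share, so they were not treated as pairs. With the replicate number as a block Pvr in ciliated mutants was -1.13 (edgeR adjusted p = 0.168), Pvrl1 was 3.23 and no member's call changed. No member's call changed without AB replicate 1 and Wdr60 replicate 1, also chosen after seeing the data. Over all genes, 77 ciliated calls became 343 without G7, 215 without H12, 156 to 173 without 1 mutant clone, 24 to 30 without 1 replicate number, 129 in DESeq2, 293 with any count, 23 with at least 10 counts, 7 in voomLmFit and 0 with libraries summed by clone; 368 non-ciliated calls became 565, 151, 9 and 0 under the last 4 and 161 to 174 without replicate 2, 3 or 4, and 1219 between states became 2522 with any count and 660 with libraries summed.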
